A study of Mus musculus with 8 samples.

Results

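The 44 genes described here are targets and partners of the tumour suppressor p53, listed by name with earlier results of these data known. They are read in bulk RNA-seq of mouse kidney, cisplatin against control. Of the 44, 24 had a row with one count for each of the 8 named libraries, out of 35880 such rows among the 53715 rows deposited. The other 20 stood in rows with 10 values, which cannot be assigned to 8 libraries, and none of their values was used: Trp53, Trp73, Mdm2, Mdm4, Rchy1, Gadd45b, Sfn, Rprm, Plk2, Zmat3, Gtse1, Ckap2, Bax, Phlda3, Aen, Perp, Shisa5, Sesn3, Ddit4 and Gdf15. The gene for p53 itself and its main inhibitor are therefore not described. All 24 remaining genes passed the filter on low counts, and their lowest count in any library was 8.

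Both groups were wild-type C57/BL6J mice, which the study's methods give as male, with 4 kidney libraries in each group. Controls (numbered 1, 2, 3 and 5) had received saline. Cisplatin-treated mice (numbered 1, 3, 4 and 6) had received 23 mg/kg cisplatin intraperitoneally, and kidneys were taken after 72 h. Cisplatin is a platinum drug that crosslinks DNA and damages the proximal tubule. Whole kidneys were read, so fewer cells of a type and less RNA per cell cannot be told apart.

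Levels are given as CPM, read counts relative to library size, scaled by TMM, a correction for libraries whose most abundant genes differ, and fold changes, their standard errors (SE) and adjusted p-values come from the quasi-likelihood test of edgeR, adjusted over all genes tested by the method of Benjamini and Hochberg. Counts over the usable rows totalled 13539665 to 16201443 in controls and 10953338 to 16701599 after cisplatin. Some libraries stood apart in ways that the treatment labels do not give. Kdm5d and Eif2s3y, which lie on the Y chromosome, had 0 to 3 counts in cisplatin 1 and 3, although the study's methods give male mice. They had 274 to 1333 counts in the other 6 libraries. Control 5, cisplatin 4 and cisplatin 6 separated from the rest on the second principal component, which held 16.0% of the variance. They were at -29.3, -34.7 and -33.6 on it. The rest were not together, with control 1, 2 and 3 at 7.7, 9.9 and 6.6 and cisplatin 1 and 3 at 35.2 and 38.1. The counts of calls are therefore also given for subsets, as are the genes whose call or direction depended on these libraries. One subset was cisplatin 4 and 6 against all controls. The other was control 1, 2 and 3 against cisplatin 1 and 3. In the latter, Kdm5d and Eif2s3y were at 274 to 1333 counts in every control, against 0 to 3 after cisplatin. Treatment and this difference cannot be told apart there. With all libraries, the same difference sets cisplatin 1 and 3 apart from every control. Its part in the values below was not tested. The proximal tubule markers, 10 genes such as Kap, Slc34a1 and Acsm2, summed to 58350 to 71490 CPM in controls and to 763 to 13640 CPM after cisplatin, and all 10 were down-regulated. Of 6 injured tubule markers 5 were up-regulated, and their sum went from 20.9 to 38.7 CPM in controls to 3690 to 4959 CPM. Loop of Henle and distal nephron markers had 4 of 6 down-regulated and Aqp2 up-regulated (9978 to 15200 CPM in controls, 1570 to 6372 CPM after cisplatin), and of 4 podocyte and endothelial markers 0 were called (495 to 974 CPM, then 476 to 769.8 CPM), with 1 under an adjusted p of 0.05. Of 6 leukocyte markers tested, 4 were up-regulated and Ptprc was down-regulated, with a summed level of 55.6 to 101 CPM in controls and 39.3 to 102 CPM after cisplatin. A second Itgam row, too low to test, was at 0 in every control, and none of the proximal tubule markers was at 0 throughout a group. Beside all these marker counts, the shares over all genes tested were 19.2% up-regulated and 15.7% down-regulated. The part of these cell changes in the values below was not tested.

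p53 is a transcription factor that is stabilised when DNA is damaged. It binds DNA as a tetramer and switches on genes that hold the cell cycle, genes that open the mitochondrial and death-receptor routes of apoptosis, and genes that alter nutrient, redox and nucleotide metabolism. It also switches on its own inhibitors, which end the response. In tubule cells exposed to platinum drugs both arrest and death are known outcomes of p53 activity.

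Of the 24 genes, 15 were up-regulated and 1 was down-regulated after cisplatin, where 19.2% of all 9141 genes tested were called up-regulated and 15.7% down-regulated. To rise or fall here, a gene had to pass an adjusted p of 0.05 and also change by 1 or more on the log2 scale. Among the other 8, 3 passed the adjusted p alone with a higher value, 1 passed it with a lower value, and 4 missed it. The adjusted p was thus passed by 18 genes with a higher and 2 with a lower value, against 26.4% and 22.6% of all genes tested. Every cisplatin library lay above every control for 17 of the 24 genes, where 23.7% of all genes tested did so, and below every control for 2, against 22.5% of all genes. The median log2 fold change of the 24 genes was 1.59, and that of all genes tested was 0.08. With cisplatin 4 and 6 alone against the controls, 16 were up-regulated and 2 down-regulated, with a median of 1.65, where 21.4% and 20.5% of all genes tested were. Between control 1, 2 and 3 and cisplatin 1 and 3, 14 were up-regulated and 1 down-regulated, with a median of 1.26, where 17.6% and 16.3% of all genes were. With the split of the libraries as a covariate it was 14 and 1, with a median of 1.56, where 19.3% and 16.6% of all genes were.

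**Figure D1:**
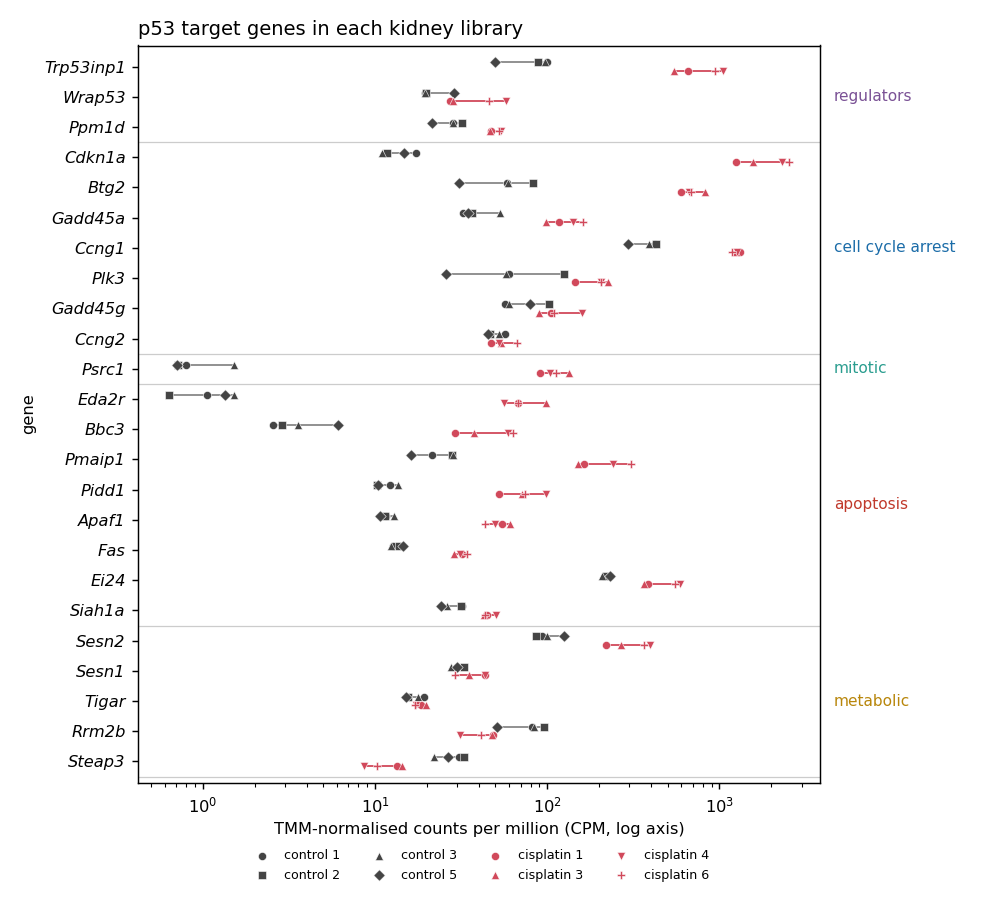
TMM-normalised CPM (log axis) of the 24 genes in each of the 8 libraries, with controls in grey, cisplatin in red, lines spanning the range of each group and one marker shape for each replicate number. Cdkn1a, Psrc1 and Eda2r show the widest separation, while the ranges of Wrap53, Gadd45g, Ccng2, Sesn1 and Tigar overlap between the groups.

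The cell cycle arrest genes were led by Cdkn1a, which encodes the cyclin-dependent kinase inhibitor p21. Of the 12 arrest and checkpoint genes listed, 7 had usable rows. Of these, 5 rose and 2 were not called, where 19.2% of all genes tested rose. The median log2 fold change of the 7 was 1.70. Cdkn1a (ENSMUSG00000023067, chr17:29090979-29100722 of GRCm38, plus strand) was at 17.3, 11.7, 11 and 14.8 CPM in control 1, 2, 3 and 5 and at 1249, 1573, 2298 and 2535 CPM in cisplatin 1, 3, 4 and 6. No library of one group came near the other, and cisplatin 4 and 6 were the highest. The mean rose from 13.7 ± 2.91 to 1914 ± 603 CPM (SD, n = 4 each), 139.9-fold, with a log2 fold change of 7.13 (SE 0.34, adjusted p = 1.12e-06). Only 0.569% of all genes tested had a higher log2 fold change. It was 7.47 with cisplatin 4 and 6 alone and 6.68 with cisplatin 1 and 3 against control 1, 2 and 3. Exons of an opposite-strand gene overlap those of Cdkn1a, and likewise of Gadd45a, Plk3, Ei24, Siah1a, Tigar and Rrm2b, 7 of the 24 genes, and whether strand was used in counting is not given in the sources used here.

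Btg2, an antiproliferative cofactor of RNA deadenylation (ENSMUSG00000020423), was at 58.3, 83.1, 58.9 and 30.5 CPM in the controls and at 594, 820.5, 661 and 683 CPM after cisplatin. The groups were wholly apart, and Btg2 rose by 3.58 on the log2 scale (SE 0.30, adjusted p = 1.76e-05). Ccng1, which encodes cyclin G1, a cyclin that recruits a phosphatase to Mdm2, was already abundant in controls at 424, 427, 389.7 and 296 CPM and reached 1311, 1244, 1261 and 1178 CPM. Its cisplatin libraries were the steadiest among the 24 genes, with a coefficient of variation of 4.40%, and the log2 fold change was 1.70 (SE 0.17, adjusted p = 5.55e-05).

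Gadd45a, a stress sensor that binds p21 and PCNA, ranged from 32.4 to 53.2 CPM in controls and from 98.1 to 162 CPM after cisplatin, a log2 fold change of 1.72 (SE 0.22, adjusted p = 0.000176). Its relative Gadd45g was at 57.0, 103, 60.1 and 78.9 CPM in the controls and at 104, 89.5, 159.5 and 109 CPM after cisplatin. The ranges overlapped, and the log2 fold change of 0.63 did not pass (SE 0.24, adjusted p = 0.0529). Scaled by total library size alone, which moved the median of all genes to 0.64, Gadd45g was called, at 1.18. Plk3, a stress-activated polo-like kinase, was at 60.04, 124, 57.8 and 25.9 CPM in the controls and at 144, 226, 206 and 206 CPM after cisplatin. Control 2 lay close to cisplatin 1, and the wide spread of the controls gave a SE of 0.40 on a log2 fold change of 1.54 (adjusted p = 0.00956). Ccng2, the cyclin G1 relative also driven by FoxO factors, was at 45.5 to 56.9 CPM in controls and 46.9 to 66.4 CPM after cisplatin, with a log2 fold change of 0.13 (SE 0.15, adjusted p = 0.518). The value of Ccng2 turned to -0.10 between control 1, 2 and 3 and cisplatin 1 and 3.

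The stretches of DNA around the annotated starts of 4 genes that rose are shown because they carry p53 half-sites, the 10-base unit that p53 dimers bind. Each window runs from 250 bases before to 50 bases after a RefSeq start (GRCm38.p6), is written 5′ to 3′ on the strand of the gene, and has its half-sites in capitals.
Cdkn1a chr17:29090729-29091028, plus strand: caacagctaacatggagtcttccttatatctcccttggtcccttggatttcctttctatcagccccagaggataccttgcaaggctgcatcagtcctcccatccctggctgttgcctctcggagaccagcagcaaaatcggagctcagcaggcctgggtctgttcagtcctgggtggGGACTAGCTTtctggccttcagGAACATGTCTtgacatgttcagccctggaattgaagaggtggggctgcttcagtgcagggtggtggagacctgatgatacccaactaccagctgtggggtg
Ccng1 chr11:40755237-40755536, minus strand: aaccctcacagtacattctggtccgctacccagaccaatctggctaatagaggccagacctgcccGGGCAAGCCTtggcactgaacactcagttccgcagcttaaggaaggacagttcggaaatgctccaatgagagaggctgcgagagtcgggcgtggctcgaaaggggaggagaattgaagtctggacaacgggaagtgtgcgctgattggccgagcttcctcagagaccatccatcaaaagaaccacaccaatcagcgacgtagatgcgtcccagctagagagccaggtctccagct
Gadd45a chr6:67037358-67037657, minus strand: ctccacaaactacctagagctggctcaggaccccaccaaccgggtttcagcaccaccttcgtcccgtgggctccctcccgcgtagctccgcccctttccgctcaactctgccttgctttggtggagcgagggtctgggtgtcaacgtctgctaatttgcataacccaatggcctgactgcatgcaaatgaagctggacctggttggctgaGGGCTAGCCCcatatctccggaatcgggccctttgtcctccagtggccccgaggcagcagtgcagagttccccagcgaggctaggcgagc
Ei24 chr9:36797285-36797584, minus strand: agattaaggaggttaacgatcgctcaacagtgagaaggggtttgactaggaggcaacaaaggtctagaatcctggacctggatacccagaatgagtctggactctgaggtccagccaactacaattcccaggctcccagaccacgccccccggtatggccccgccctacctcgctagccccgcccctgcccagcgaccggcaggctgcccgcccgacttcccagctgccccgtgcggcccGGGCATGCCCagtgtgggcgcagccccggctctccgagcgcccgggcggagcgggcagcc
The Cdkn1a window holds 2 half-sites, starting 73 and 51 bases before the start, and belongs to the upstream of its 2 annotated starts. The window of the other Cdkn1a start held none. The half-sites of Ccng1, Gadd45a and Ei24 start 185, 40 and 10 bases before their starts. The motif was searched with no mismatch, and its letters read alike on both strands. A pair of half-sites with 0 to 13 bases between them stood in windows of 20 of 27025 genes, 0.0740%. A window was found for 39 of the 44 listed genes, and the 5 unmatched genes were Trp53inp1, Zmat3, Pmaip1, Perp and Rrm2b. At least one half-site stood in 15 of the 39, 38.5%, and in 9.55% of all genes with a window. Several genes have more than one window, and counted by window it was 17 of 58, 29.3%, against 8.36% of all 32817 windows. The half-sites of Trp53 and Wrap53 are the same bases read on opposite strands, so that site counts for both genes. The overlapping windows of Aen likewise share their half-site. Among the genes that rose, 4 of 13 with a window had one, 30.8%, and among the tested genes that did not rise, 3 of 8, 37.5%. The windows of Psrc1, Eda2r, Bbc3 and Btg2 held no half-site.

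Psrc1 stood alone among the genes of the mitotic apparatus, since Gtse1 and Ckap2 had no usable row. It encodes a proline- and serine-rich protein of the spindle. Psrc1 (ENSMUSG00000068744, chr3:108383839-108388231, plus strand) was at 0.797, 0.718, 1.52 and 0.708 CPM in the controls, which is 9 to 20 counts, and at 90.3, 134, 104 and 112 CPM after cisplatin. The groups were wholly apart, and Psrc1 rose 116-fold, a log2 fold change of 6.86 (SE 0.29, adjusted p = 7.95e-07). It was 6.83 with cisplatin 4 and 6 alone and 6.71 with the first 3 controls and cisplatin 1 and 3. Beside it stand the markers of dividing cells. Of 5 tested, Aurkb (log2 fold change 1.97) and Birc5 (1.32) rose, where 19.2% of all genes tested rose. Cenpa, Plk1 and Kif11 were not called, and the median of the 5 was 0.91. Both Aurkb and Birc5 were highest in cisplatin 6. Aurkb was at 2.5, 3.5, 6.1 and 11.3 CPM and Birc5 at 4.7, 4.4, 5.0 and 12.2 CPM in cisplatin 1, 3, 4 and 6. The summed level of the 5 markers was 9.91 to 19.6 CPM in controls and 18.3, 23.1, 28.2 and 54.7 CPM in cisplatin 1, 3, 4 and 6. Their part in the rise of Psrc1 was not tested.

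Apoptosis genes changed as a group of 8 usable rows among 13 listed. Of these, 7 rose and Siah1a was not called, where 19.2% of all genes tested rose. Every cisplatin library lay above every control for all 8, where 23.7% of all genes tested did so. The median log2 fold change of the 8 was 2.42. Eda2r, a death-domain signalling receptor for ectodysplasin-A2 on the X chromosome (ENSMUSG00000034457, chrX:97333840-97377216, minus strand), was at 1.06, 0.638, 1.52 and 1.34 CPM in the controls and at 67.8, 98.2, 56.3 and 68.0 CPM after cisplatin. That is 8 to 20 counts in a control library against 769 to 1785 in a treated one. Eda2r rose 63.1-fold, a log2 fold change of 5.98 (SE 0.31, adjusted p = 1.40e-06).

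The BH3-only genes Bbc3 (Puma) and Pmaip1 (Noxa), whose proteins neutralise Bcl2 family survival factors, both rose. Bbc3 (ENSMUSG00000002083) was at 2.57, 2.87, 3.56 and 6.05 CPM in the controls and at 29.0, 37.5, 58.9 and 62.9 CPM after cisplatin, a log2 fold change of 3.64 (SE 0.36, adjusted p = 4.60e-05). Pmaip1 (ENSMUSG00000024521) was at 21.3, 28.1, 28.2 and 16.1 CPM in the controls and at 162, 150.5, 241 and 307 CPM, a log2 fold change of 3.20 (SE 0.29, adjusted p = 2.82e-05). In both genes cisplatin 4 and 6 were the highest and the groups did not overlap.

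Of the genes that carry the signal onward, Pidd1, the scaffold of the caspase-2 complex, rose from 10.2 to 13.5 CPM in controls to 52.7, 71.2, 97.8 and 74.7 CPM, a log2 fold change of 2.68 (SE 0.22, adjusted p = 1.47e-05). Apaf1, the core of the apoptosome, rose from 10.7 to 12.8 CPM to 54.7, 60.8, 49.5 and 43.5 CPM, a log2 fold change of 2.16 (SE 0.16, adjusted p = 1.05e-05). Unlike Pidd1, Apaf1 was highest in cisplatin 1 and 3. Fas, the death receptor, rose from 12.3 to 14.5 CPM to 28.9 to 34.3 CPM, a log2 fold change of 1.24 (SE 0.15, adjusted p = 0.000144).

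The call of Ei24 depended on the libraries. This gene, which encodes a membrane protein of the endoplasmic reticulum linked to autophagy, was at 232, 221, 208 and 230.1 CPM in the controls and at 384, 364, 587 and 549 CPM after cisplatin, a log2 fold change of 1.08 (SE 0.19, adjusted p = 0.00126). Cisplatin 4 and 6 stood well above cisplatin 1 and 3. The log2 fold change was 1.36 with cisplatin 4 and 6 alone, 0.71 with control 1, 2 and 3 against cisplatin 1 and 3, 0.95 without cisplatin 4 and 0.95 with the split of the libraries (control 5, cisplatin 4 and 6 against the rest) as a covariate, the last 3 under the fold threshold. Siah1a, a ubiquitin ligase with a close relative that could share its reads, ranged from 23.98 to 32.2 CPM in controls and from 43.2 to 50.2 CPM after cisplatin. It passed the adjusted p alone, with a log2 fold change of 0.68 (SE 0.15, adjusted p = 0.00525), and was called, at 1.23, when scaled by total library size alone.

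**Figure D2:**
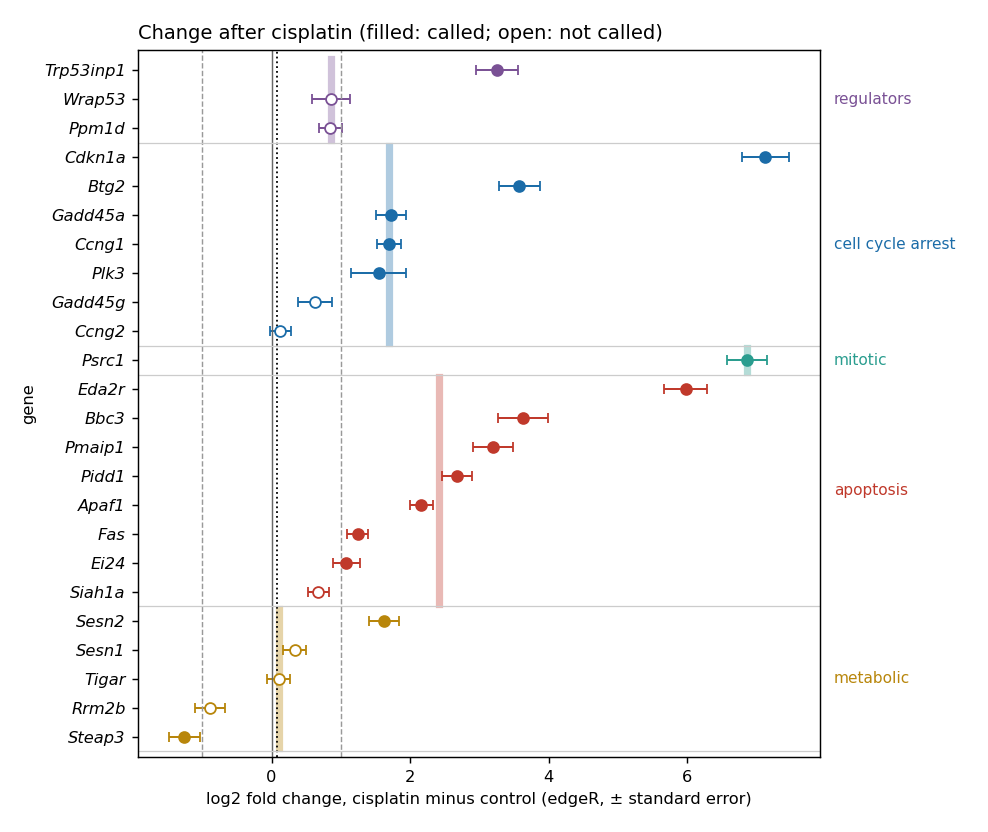
Log2 fold change of each gene, cisplatin minus control, with its SE from edgeR (4 libraries a group), filled where called and open where not, with thick bars for group medians, dashed lines at the fold threshold and a dotted line at the median of all genes tested. Apoptosis and arrest genes lie mostly to the right of the threshold, and of the metabolic genes only Sesn2 does.

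Of 8 metabolic and secreted targets listed, 5 had usable rows, 1 rose, 1 fell and 3 were not called. These shares are close to the 19.2% and 15.7% of all genes tested, and the median log2 fold change of 0.10 is close to the 0.08 of all genes. Sesn2, a sestrin that senses leucine and restrains mTORC1, was at 93.1, 85.5, 99.7 and 125 CPM in the controls and at 220.5, 267, 396 and 363 CPM after cisplatin. The groups did not overlap, and the log2 fold change was 1.63 (SE 0.22, adjusted p = 0.000272). Its paralog Sesn1 was at 29.8, 32.7, 27.5 and 29.96 CPM in the controls and at 43.7, 34.9, 43.2 and 29.3 CPM after cisplatin, with cisplatin 6 inside the control range. Its log2 fold change was 0.33 (SE 0.17, adjusted p = 0.132). Tigar, a phosphatase that lowers glycolytic flux, was at 15.2 to 19.2 CPM in controls and 17.1 to 19.7 CPM after cisplatin (log2 fold change 0.10, SE 0.16, adjusted p = 0.629).

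Steap3, a ferrireductase of the endosome also known as a p53-inducible secretion factor, was the one gene that fell. It was at 30.8, 32.6, 21.9 and 26.3 CPM in the controls and at 13.4, 14.2, 8.64 and 10.3 CPM after cisplatin. All 4 treated kidneys lay below all controls, and the log2 fold change was -1.26 (SE 0.22, adjusted p = 0.00115). Scaling by total library size alone moved it to -0.68, under the fold threshold. Rrm2b, the p53-induced small subunit of ribonucleotide reductase that supplies nucleotides for DNA repair, was at 81.7, 95.3, 83.7 and 51.0 CPM in the controls and at 48.2, 47.8, 31.0 and 41.3 CPM after cisplatin. Its groups did not overlap either, although control 5 was close to the treated kidneys. Rrm2b passed the adjusted p alone, with a log2 fold change of -0.89 (SE 0.22, adjusted p = 0.00825), and it was called, at -1.06 without control 5 and at -1.11 with cisplatin 4 and 6 alone. Scaling by total library size alone moved Rrm2b to -0.32 (adjusted p = 0.290).

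Arrest, apoptosis and metabolic genes kept one order in every treated kidney. Relative to the control mean, the median log2 level of the arrest genes was 1.61, 1.71, 1.84 and 1.83 in cisplatin 1, 3, 4 and 6. For the apoptosis genes it was 2.21, 2.51, 2.59 and 2.30. The metabolic genes were near the controls in each, at 0.14, 0.22, 0.03 and -0.03. With Psrc1 counted among the arrest genes, 6 of 8 rose and 0 fell, with a median log2 fold change of 1.71. Of the 13 apoptosis and metabolic genes together, 8 rose and 1 fell, with a median of 1.24. Of all genes tested, 19.2% rose and 15.7% fell. The pooled median of 1.24 joins 2.42 for the apoptosis genes and 0.10 for the metabolic genes, and the arrest genes alone had 1.70. Listed genes without a usable row are in none of these medians. These are medians of short hand-written lists, and the difference between the lists was not tested.

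Among the regulators of p53, 3 of 8 listed genes had usable rows and 1 rose, where 19.2% of all genes tested rose. Trp53inp1, a stress-induced cofactor of p53 that also takes part in autophagy, was at 99.6, 88.8, 96.8 and 50.01 CPM in the controls and at 660.4, 541, 1052 and 946 CPM after cisplatin. The groups were wholly apart, and the log2 fold change was 3.25 (SE 0.30, adjusted p = 3.18e-05). Ppm1d, the phosphatase Wip1 that turns off the p53 response, ranged from 21.3 to 32.2 CPM in controls and from 46.4 to 53.6 CPM after cisplatin. It passed the adjusted p alone, with a log2 fold change of 0.85 (SE 0.16, adjusted p = 0.00205), and was called, at 1.40, under scaling by total library size alone. Wrap53, a Cajal body and telomerase protein whose gene is a head-to-head neighbour of Trp53, was at 19.5, 19.9, 19.6 and 28.6 CPM in the controls and at 27.3, 28.3, 57.5 and 45.8 CPM after cisplatin. Control 5 lay above cisplatin 1 and 3. Its log2 fold change was 0.86 (SE 0.27, adjusted p = 0.0242), and it was called, at 1.25, with cisplatin 4 and 6 alone, at 1.01 without cisplatin 1 and, at the threshold itself, without control 5. Leaving out control 1, 2 or 3 or cisplatin 4 or 6 instead took its adjusted p above 0.05, to 0.0590 to 0.0669.

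**Figure D3:**
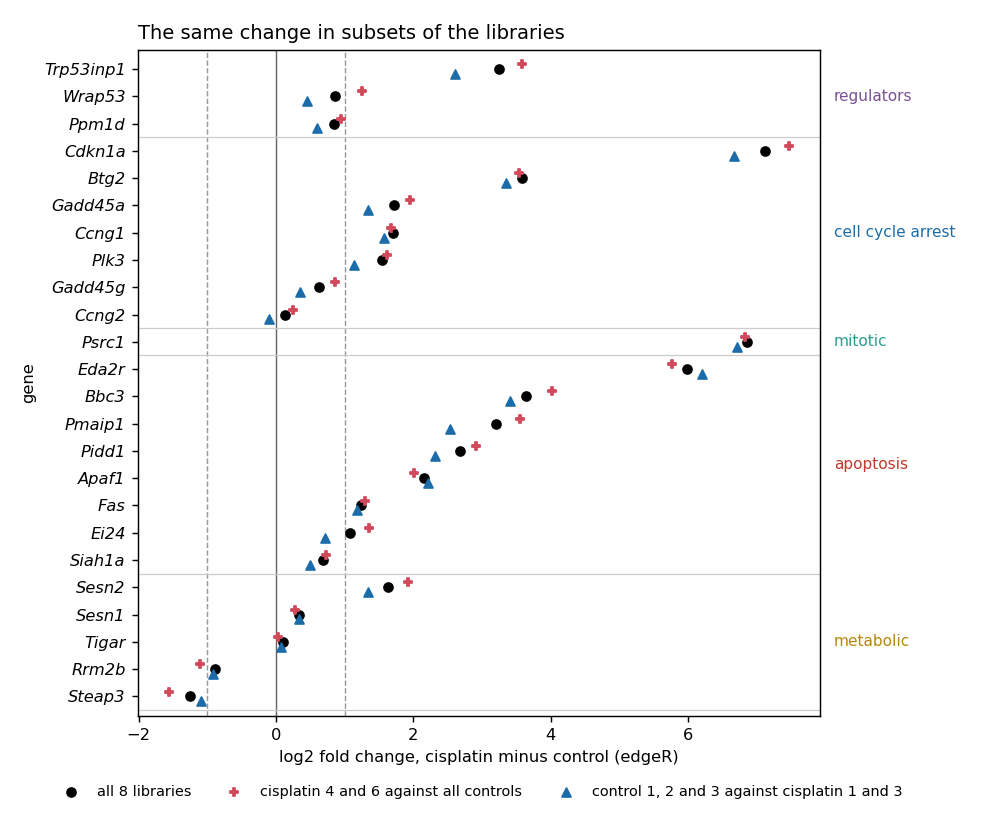
Log2 fold change of the 24 genes, cisplatin minus control, with all 8 libraries (circles), with cisplatin 4 and 6 against all 4 controls (plus signs) and with control 1, 2 and 3 against cisplatin 1 and 3 (triangles). Cdkn1a moves from 6.68 to 7.47 between the subsets and Ei24 from 0.71 to 1.36, across the fold threshold.

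Scaled to the deposited gene length, the order of the 24 genes changed with treatment. The deposited length of Cdkn1a was 2223 bases, while its exons in the GENCODE M21 annotation cover 3553. The longer length would lower both of its values below. Fas and Pmaip1 also had shorter deposited lengths than in GENCODE M21. In controls Ccng1 was the most abundant, at 109 CPM per kilobase, followed by Gadd45g at 63.7 and Ei24 at 45.7, while Cdkn1a was number 17, at 6.15. Eda2r and Psrc1 were the least abundant, at 0.193 and 0.278 CPM per kilobase. After cisplatin Cdkn1a was the most abundant of the 24, at 861 CPM per kilobase, with Ccng1 next at 355 and then Btg2 at 251. Steap3 was then the least abundant, at 2.04, and Psrc1 had moved from number 23 to number 11. Since these are means over 4 libraries whose spread reached 61.6% of the mean in controls and 36.6% after cisplatin, neighbours in the order are not told apart.

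**Figure D4:**
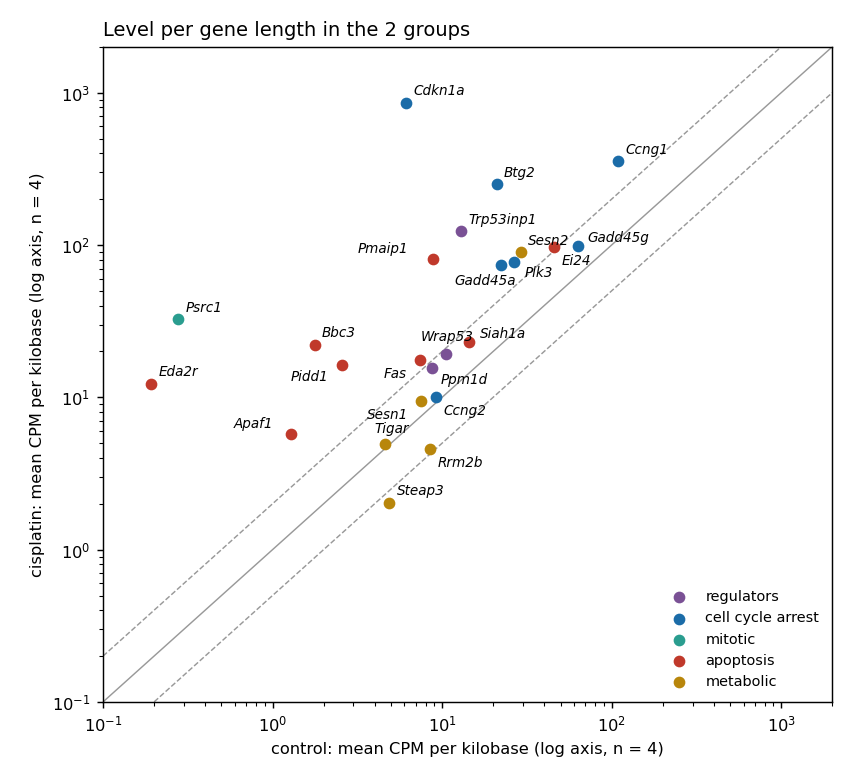
Mean CPM per kilobase of gene length in controls (x axis) and after cisplatin (y axis), both log axes, n = 4 libraries each, with the solid line at equal levels and dashed lines at a doubling and a halving. Cdkn1a lies farthest above the line, at 6.15 and 861 CPM per kilobase, and Steap3 lies lowest, at 4.89 and 2.04.

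The rest of the p53 pathway was read from a list of 33 other genes, of which 15 had usable rows. Of these, 7 rose, 1 fell and 7 were not called, where 19.2% of all genes tested rose and 15.7% fell. The median log2 fold change of the 15 genes was 1.09, against 0.08 for all genes tested. The summed level of the 15 genes was 824 to 900.4 CPM in controls and 1424 to 1723 CPM after cisplatin. The genes of this list that rose included the checkpoint kinase gene Chek1 (log2 fold change 1.09), the cyclin gene Ccne1 (1.78) and the mitotic kinase gene Cdk1 (1.88). Among them were also the membrane protein gene Cd82 (1.24), the matrix gene Thbs1 (1.56) and Bcl2l1 (1.33). The groups of Cdk1 overlapped, with control 1 at 3.808 CPM and cisplatin 1 at 3.775 CPM, and cisplatin 4 and 6 were highest, at 7.91 and 13.1 CPM. Bcl2l1 encodes the survival factor Bcl-xL, the opposite in function to Bbc3 and Pmaip1, and went from 204 ± 19.98 to 513 ± 73.9 CPM (SD, n = 4 each, adjusted p = 0.000145). Bid, whose protein links death receptors to mitochondria, fell from 135 ± 27.0 to 51.7 ± 9.91 CPM, a log2 fold change of -1.38 (SE 0.20, adjusted p = 0.000382). Cdk2 passed the adjusted p alone (log2 fold change 0.65, adjusted p = 0.0139). Bcl2 and Casp9 were not called, at -0.35 and -0.16, nor were Ccnb1, Ccnb2, Ccnd2 and Cdk4.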

How the data were processed

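Polyadenylated RNA of 8 kidneys was sequenced. The read counts per gene were deposited by the authors as raw counts, after fastp and HISAT2 alignment to GRCm38 per the labels. The counting tool, annotation release and strand setting are not given in the sources used here. The labels and the study's methods name different library kits, and the dose is from the methods. The table's header names 8 libraries, but 17835 of its 53715 rows hold 10 values. Those rows, and the 2 unnamed columns of values, were not used. Gene length was taken as deposited.

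The 44 genes, their role groups and all other lists were chosen with earlier results of these data known. Every listed gene with a usable row is named. Of the other p53 pathway genes, those called or with an adjusted p under 0.05 are named, except 1 that is not reported here. Of marker lists, at most 3 genes with the highest mean CPM are named, and any called gene where fewer than 4 were called. Marker and pathway genes named outside this were chosen after their values were seen.

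Low counts were removed with filterByExpr, leaving 9141 genes. edgeR 4.0.16 in R 4.3.3 was run with TMM and the quasi-likelihood test, cisplatin against control, without a block. The standard error is the absolute log2 fold change over the square root of F. TMM factors were 0.785 to 0.854 in controls and 1.15 to 1.32 after cisplatin. With 4 libraries a group, p-values weigh the difference between the groups against the spread between these samples. A count of 0 allows up to 3 counts, which covers counting error only. Scripts were tested on simulated data. The alternatives were other scalings and filters, DESeq2 1.42.0, leaving out each library, a replicate block, subsets of libraries, and the split of the libraries (control 5, cisplatin 4 and 6 against the rest) as a covariate. Promoter windows were taken from RefSeq (GRCm38.p6).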

Additional observations from a re-analysis of the deposited data

Results flagged for a closer look

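In 2 of the 48 groups of 4 libraries (24 genes, 2 groups each), one library lay far from the other 3, where chance flags about 1 in 20 groups. Psrc1 was at 1.52 CPM in control 3 and at 0.708 to 0.797 CPM in the other controls, and the gap was 0.890 of the whole range. Wrap53 was at 28.6 CPM in control 5 and at 19.5 to 19.9 CPM in the other controls, a gap of 0.958 of the range.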

How the results depend on the processing

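Of the 24 genes, 16 kept their call and direction under every alternative that could be fitted, 18 for each gene except Psrc1 and Eda2r, which a minimum of 10 counts in every library removed. Total library size alone moved the median of all genes to 0.64 and called 34.7% of them up-regulated and 8.78% down-regulated. Under it 19 of the 24 genes were called up-regulated, adding Gadd45g, Ppm1d, Siah1a and Wrap53 (1.41), 0 of the 24 and 0 metabolic genes were called down-regulated in edgeR, and the medians were 2.13 for all 24, 2.26 for arrest, 2.98 for apoptosis and 0.67 for metabolic genes. With at least 10 counts in every library the apoptosis median was 2.19, since Eda2r was not tested. Leaving out 1 library gave 14 to 16 of the 24 genes called up-regulated, where 16.9% to 20.1% of all genes were. It gave 1 to 2 of them called down-regulated, where 14.7% to 16.6% of all genes were. The 2 were Steap3 and Rrm2b, both metabolic, without control 5, where 15.1% of all genes were. Cisplatin 4 and 6 against all controls also gave 2 called down-regulated, both metabolic, where 20.5% of all genes were. Between control 1, 2 and 3 and cisplatin 1 and 3 the medians were 1.26 for all 24, 1.34 for arrest and 2.26 for apoptosis genes, and Ccng2 was at -0.10. The cause of these shifts was not tested. The groups share the replicate numbers 1 and 3, whose deviations correlated at 0.22 and 0.23, and 2 pairs do not establish a pairing. With that replicate block, 14 genes were up-regulated and 0 down-regulated, metabolic genes included, where 18.7% and 15.4% of all genes were, with Ei24 at 0.77 and Steap3 at -0.91 under the fold threshold, the medians were 1.35 for all 24 and 2.25 for apoptosis genes, and Ccng2 was at -0.12. Psrc1 and Eda2r rest on 8 to 20 counts in each control library, which limits the precision of their fold changes.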

Other observations

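Cisplatin 1 and 3 were both below cisplatin 4 and 6 for 11 of the 24 genes, 45.8%, and both above for 4, 16.7%, where 36.7% and 36.2% of all genes tested were. The mean of cisplatin 1 and 3 over that of cisplatin 4 and 6 was 0.584 for Cdkn1a, 0.546 for Bbc3, 0.572 for Pmaip1 and 0.601 for Trp53inp1, and 1.24 for Apaf1 and 1.46 for Steap3. The summed proximal tubule markers were at 1109 and 763 CPM in cisplatin 1 and 3 and at 7695 and 13640 CPM in cisplatin 4 and 6. Kap gave most of this split, at 544 and 229 CPM against 6220 and 11020 CPM. The other markers except Lrp2 were also lower in cisplatin 1 and 3, Cubn at 37.1 and 47.5 CPM against 64.2 and 63.0 CPM. Lrp2 was at 141, 190, 137 and 189 CPM in cisplatin 1, 3, 4 and 6. Cisplatin 1 and 3 are also the libraries with 0 to 3 counts of Kdm5d and Eif2s3y. That difference cannot be told apart from the split of the proximal tubule markers. The part of the proximal tubule markers in the order of the 24 genes was not tested.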
